A study of Mus musculus with 12 samples.

Results

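The comparison described here sets 6 quadriceps arrays from dystrophic mice given a mineralocorticoid receptor antagonist together with lisinopril against 3 arrays from untreated dystrophic mice. The 6 arrays were chosen by their titles, 3 labelled spironolactone plus lisinopril and 3 labelled eplerenone plus lisinopril, and with the untreated arrays they make 9 of the 12 arrays in the set. Each combination group carried the same weight, so a pooled change is the average of the combination means minus the untreated mean. Interest lies in genes that 3 arrays against 3 arrays did not bring past the threshold for either combination alone.

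All mice were male, 6 weeks old, of the C57BL/10 background with the genotype utrn+/-;mdx. The mdx mutation removes full-length dystrophin, and the loss of 1 utrophin allele, which the untreated mice carried too, lowers the related protein that can partly stand in for it. Drugs were given from 4 to 6 weeks of age. The first combination was spironolactone at 100 mg/kg per day with lisinopril at 20 mg/kg per day, and the second was eplerenone at 200 mg/kg per day with the same dose of lisinopril, both in medicated pellets. Prednisolone, used below as a comparator, reached the mice through drinking water (1.5 mg/kg per day), and untreated mice ate normal chow. Each group held 3 mice with 1 array each. No group received lisinopril alone or pellets without drug, so the parts of the antagonist, lisinopril and the pellet cannot be told apart, and no healthy muscle was in the set.

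The mineralocorticoid receptor is a nuclear receptor that binds aldosterone and also glucocorticoids, enters the nucleus and alters transcription. It is best known for sodium handling in the kidney, and it is also present in heart, vessel wall, immune cells and skeletal muscle. Spironolactone and eplerenone are steroidal antagonists that occupy its ligand pocket. Lisinopril inhibits angiotensin-converting enzyme, which makes angiotensin II, a peptide that raises aldosterone and acts on vessels and inflammatory cells. Dystrophic muscle goes through cycles of fibre damage, leukocyte entry and regeneration, so a change in such tissue can lie in the fibres, in the leukocytes or in their relative amounts.

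Across the 30412 transcript clusters that carry exactly 1 gene symbol, 68 passed an adjusted p of 0.05 (limma with Benjamini-Hochberg adjustment, 0.224% of those tested), 21 of them higher with the combinations (0.0691%) and 47 lower (0.155%). The lower genes were led by Thbs1, Hdc, Il6, Zfp36, Cd14 and Plaur, and included 3 members of the NF-kappa B system. Among the higher genes were Dbp, Nr1d1 and Per3 of the circadian clock, the syntrophin Sntb1, the Z-disc protein gene Synpo2l, the acetylcholine receptor subunit gene Chrnb1 and the muscle transcription factor gene Mef2c. The spironolactone combination alone gave 25 calls (0.0822%) and the eplerenone combination alone gave 9 (0.0296%). Of the 68, 40 passed in the pooled comparison and in neither single one (0.132%), 13 of them higher (0.0427%) and 27 lower (0.0888%).

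These counts moved with the arrays used. In a fit on the 9 arrays without prednisolone 1 cluster passed, Dennd4a, although 4949 had an unadjusted p under 0.05. That fit has fewer degrees of freedom and leaves the prednisolone arrays out of the variance. The part of each was not tested. Without untreated array 1 the pooled count was 988, without untreated array 2 it was 18 and without untreated array 3 it was 6. Without spironolactone arrays 1, 2 and 3 it was 19, 17 and 232, and without eplerenone arrays 1, 2 and 3 it was 34, 16 and 28. Without prednisolone arrays 1, 2 and 3, which bear on the variance estimate and not on the change itself, it was 23, 19 and 21. The count of 40 ran over the same omissions between 4, without untreated array 2, and 344, without untreated array 1, and was 27 without eplerenone array 1. It was 16, 13 and 84 without spironolactone arrays 1, 2 and 3, 5 and 17 without eplerenone arrays 2 and 3, 6 without untreated array 3 and 19, 15 and 18 without prednisolone arrays 1, 2 and 3. Members of the 40 among these were 0 without untreated array 2 or 3, 2 without untreated array 1 and 6 without eplerenone array 1. There were 27 without spironolactone array 3 and at most 4 in the other omissions. All 68 still passed the pooled comparison without untreated array 1 or spironolactone array 3. With array medians made equal, 60 clusters passed, of which 43.3% were higher, against 30.9% as deposited.

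The 6 combination arrays and the 3 untreated arrays did not overlap for 67 of the 68, the exception being Per3, where 2344 of all tested clusters showed no overlap (7.71%). The signs of those 67 could therefore not turn when arrays were left out. Genes named for the size of their change were drawn from those 67. Their non-overlap, given below, thus describes them and is no added support. Over all tested clusters the median change was -0.0368 and 41.6% had a positive change, which is the share to hold beside the sign counts of gene lists below. An unadjusted p under 0.05 was found for 5568 clusters (18.3%). A fold of 2 was reached by 191 clusters (0.628%), of which 18 also passed the adjusted threshold.

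**Figure D1:**
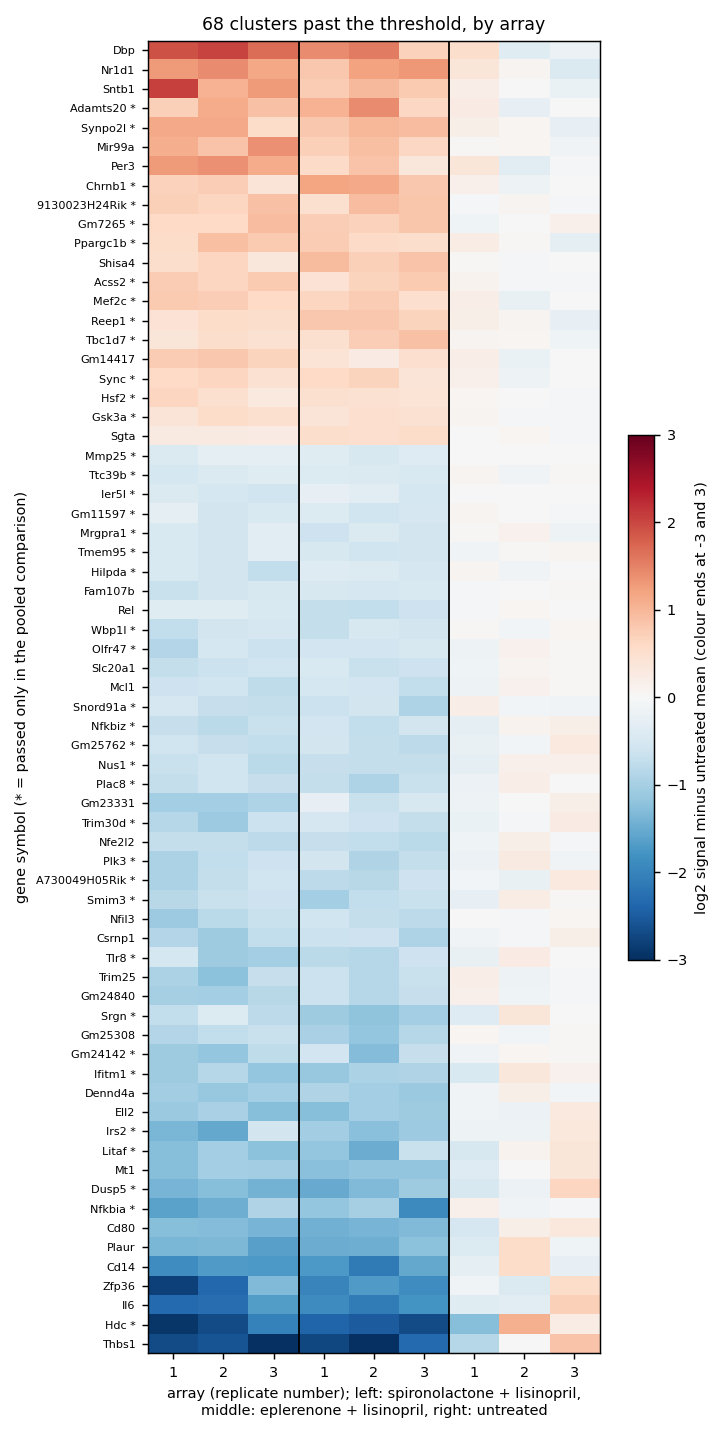
Log2 signal minus the untreated mean for the 68 clusters past the threshold (rows, ordered by pooled change) in each of 9 arrays (columns: spironolactone plus lisinopril, eplerenone plus lisinopril, untreated); an asterisk marks the 40 that passed in neither single comparison. The 6 combination columns share their colour in nearly every row, red for the 21 higher and blue for the 47 lower clusters, and the strongest blues are in Thbs1, Hdc, Il6 and Zfp36.

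The muscle identity of the samples was checked on 12 defining skeletal muscle genes. All 12 were measured, none passed the threshold, and their median change was 0.0831. Creatine kinase, Ckm, read 18.44 to 18.87 log2 signal in the combination arrays and 18.53 to 18.82 in the untreated arrays. Array medians over the tested clusters lay between 5.70 and 5.81. The untreated arrays differed among themselves in neutrophil genes: the median over 20 neutrophil markers, relative to the mean of the 9 arrays, was -0.662 to -0.0824 in the combination arrays, and -0.104, 0.932 and 1.24 in untreated arrays 1, 2 and 3. Array 1 thus lay within the range of the combination arrays, and arrays 2 and 3 lay above all of them. Fewer cells of a type and less RNA per cell cannot be told apart in whole muscle.

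The absolute log2 change of the 40 genes gained by pooling ran between 0.377 and 2.53 with a median of 0.692, against 0.902 in the other 28, a split that the rule itself makes by significance. A fold of 2 was reached by 6 of the 40, all of them lower: Hdc, Nfkbia, Dusp5, Litaf, Irs2 and Ifitm1. In the single comparisons, which share the untreated arrays, their adjusted p lay between 0.0657 and 0.159 for the spironolactone combination and between 0.061 and 0.168 for the eplerenone combination. The largest unadjusted p of any of the 40 in either single comparison was 0.00242. The median SE of a pooled change over all tested clusters was 0.111, against 0.129 for a single one. Passing with 6 arrays and not with 3 does not show that the combinations differ, which is tested directly further on.

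**Figure D2:**
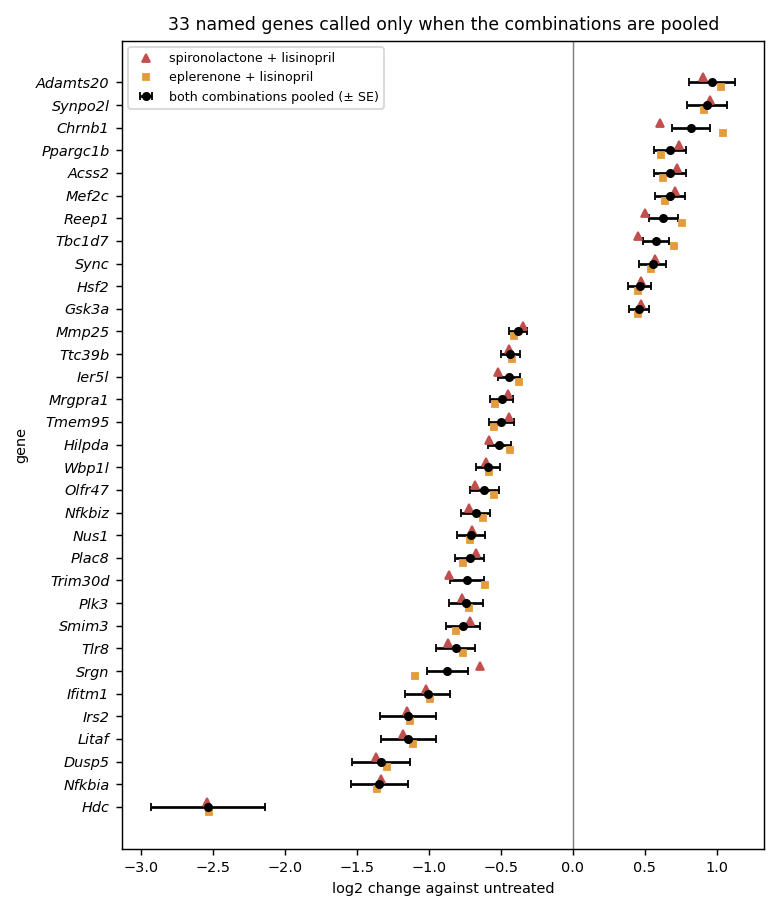
Pooled log2 change against untreated with its SE (circles) for the 33 named genes that passed in the pooled comparison and in neither single one, beside the change with spironolactone plus lisinopril (triangles) and eplerenone plus lisinopril (squares). The widest gaps between triangle and square are in Chrnb1 and Srgn, and Hdc is set apart at -2.53.

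Genes for 3 members of the NF-kappa B system fell, Nfkbia, Nfkbiz and Rel, and the first 2 of them were gained by pooling. NF-kappa B factors are dimers held in the cytoplasm by inhibitors of the I kappa B family until a cytokine or injury signal releases them. Nfkbia encodes I kappa B alpha, the main such inhibitor and itself a target of NF-kappa B. Its log2 signal was 9.53, 9.67 and 10.24 in the spironolactone arrays and 9.98, 10.15 and 9.23 in the eplerenone arrays, against 11.29, 11.03 and 11.10 in the untreated arrays. All 6 combination arrays lay below all 3 untreated arrays, and untreated array 1 was the highest. The pooled change was -1.34 ± 0.20 (SE, adjusted p = 0.0316), with an adjusted p of 0.0755 for the spironolactone combination and 0.0988 for the eplerenone combination.

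Nfkbiz encodes I kappa B zeta, a nuclear cofactor needed by a subset of NF-kappa B targets. It read 6.36, 6.24 and 6.37 in the spironolactone arrays and 6.48, 6.30 and 6.49 in the eplerenone arrays, against 6.76, 7.16 and 7.23 in the untreated arrays. The groups did not overlap, and the pooled change was -0.67 ± 0.10 (adjusted p = 0.0319). Against untreated array 1 alone it was -0.387. Rel, the c-Rel subunit of the factor itself, changed by -0.54 ± 0.06 (adjusted p = 0.0125) and had already passed with the eplerenone combination alone. Of 16 measured genes for NF-kappa B subunits and inhibitors, these 3 fell, none rose, and 13 had a negative change, with a list median of -0.236, or -0.101 against untreated array 1 alone. Bcl3, another nuclear I kappa B protein, stood at -1.29 ± 0.27 without passing (adjusted p = 0.0926), and the subunit gene Rela at -0.27 ± 0.12 (adjusted p = 0.272).

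Sequence near the start sites of the lower genes was searched for a kappa B motif. RefSeq windows from 250 bases before to 50 after each annotated start were taken for build GRCm38.p6, and 36 of the 47 lower genes had one or more, 44 windows in all. The motif GGG, any 2 bases, then TTTCC, on either strand, was found in 5 of these 44 windows (11.4%), in 0 of the 19 windows of 15 higher genes and in 535 of all 32851 windows (1.63%). A stretch of each of the 5 windows is printed because they join the inhibitor and subunit genes above with Il6, Dusp5 and Mcl1. Each stretch is 60 bases, read on the strand of its gene, with the match in capitals.
Nfkbia: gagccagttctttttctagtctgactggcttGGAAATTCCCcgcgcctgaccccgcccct
Rel: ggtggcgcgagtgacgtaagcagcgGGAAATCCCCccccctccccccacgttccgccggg
Il6: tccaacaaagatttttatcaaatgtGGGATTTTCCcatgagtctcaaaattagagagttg
Dusp5: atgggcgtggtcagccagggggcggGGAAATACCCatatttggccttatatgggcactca
Mcl1: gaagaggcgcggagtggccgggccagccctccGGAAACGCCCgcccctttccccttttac

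In build GRCm38.p6 the Nfkbia stretch is chr12:55492648-55492707 on the minus strand and the Rel stretch is chr11:23771026-23771085 on the minus strand. The Il6 stretch is chr5:30013045-30013104, the Dusp5 stretch is chr19:53529030-53529089 and the Mcl1 stretch is chr3:95658661-95658720, all on the plus strand. The first base of the match lay 29 bases before the start in Nfkbia, 91 in Rel, 44 in Il6, 90 in Dusp5 and 28 in Mcl1. A match describes letters in a window and says nothing of whether a factor bound there. The AP-1 type motif TGANTCA, searched on both strands, was in 9 of the 44 windows of lower genes (20.5%), 2 of the 19 windows of higher genes (10.5%) and 7.81% of all windows. The E-box CACGTG was in 3 of 44 (6.82%), 3 of 19 (15.8%) and 7.15%. The Il6 window was the 1 window of a lower gene that held both the kappa B and the TGANTCA motif.

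Il6 was the 1 gene called among the interleukin and chemokine lists. Il6, which encodes a cytokine made by both muscle and leukocytes, read 4.52, 4.56 and 5.18 in the spironolactone arrays and 4.96, 4.75 and 5.04 in the eplerenone arrays, against 6.47, 6.50 and 7.55 in the untreated arrays. Its pooled change of -2.01 ± 0.23 (adjusted p = 0.0125) was past the threshold with each single array of the 9 left out. Its mean over the arrays lay below the median of all values (5.76), as did that of Csrnp1, where a level cannot be told from background without detection values. Of 21 measured genes of the interleukin-1 and interleukin-6 families 18 had a negative change, with a list median of -0.59, or -0.125 against untreated array 1 alone. Il1b, the pyrogenic cytokine interleukin-1 beta, stood at -4.30 ± 0.82 without passing (adjusted p = 0.0741), and read 6.14 to 8.05 in the combination arrays against 8.09, 12.87 and 11.72 in the untreated arrays. None of 24 chemokine ligands passed, though all 24 had a negative change (median -0.744, or -0.0633 against untreated array 1 alone).

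Hdc, histidine decarboxylase, makes histamine in mast cells, basophils and neutrophils and was also on the neutrophil list. It read 4.94, 5.18 and 5.82 in the spironolactone arrays and 5.44, 5.37 and 5.17 in the eplerenone arrays, against 6.56, 8.92 and 8.07 in the untreated arrays. The groups did not overlap, but the untreated arrays spread over more than 2 log2 units. The mean of the combination arrays, 5.32, lay below the median of all values (5.76), where a level cannot be told from background without detection values. The pooled change was -2.53 ± 0.39 (adjusted p = 0.0378), and against untreated array 1 alone it was -1.24. That SE and p assume the same variance in every group. The SD was 1.19 in the untreated arrays, 0.46 and 0.14 in the spironolactone and eplerenone arrays and 0.13 in the prednisolone arrays. All 20 neutrophil markers had a negative change and their median was -1.15, or -0.0989 against untreated array 1 alone, yet Hdc was the 1 that passed. S100a8, a calcium-binding protein abundant in neutrophils, stood at -4.63 ± 1.03 (adjusted p = 0.1), reading 5.12 to 7.99 in the combination arrays against 7.14, 12.93 and 12.03 in the untreated arrays. The granule genes Mpo and Elane read 4.07 to 4.44 over the 9 arrays, below the median of all values (5.76). The part of neutrophil number in the lower genes was not tested.

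Further leukocyte and innate genes were gained by pooling. Tlr8, an endosomal RNA receptor of myeloid cells, read 10.19, 9.65 and 9.69 in the spironolactone arrays and 9.90, 9.86 and 10.08 in the eplerenone arrays, against 10.48, 10.95 and 10.70 in the untreated arrays, a change of -0.81 ± 0.13 (adjusted p = 0.0417). Plac8, a small cysteine-rich protein of leukocytes, changed by -0.72 ± 0.10 (adjusted p = 0.0258), with 6.16 to 6.48 in the combination arrays and 6.90 to 7.29 in the untreated arrays. Srgn, the granule proteoglycan serglycin, fell by 0.87 ± 0.14, and Ifitm1, an interferon-induced membrane protein, fell by 1.01 ± 0.16. Litaf, a regulator of endosomal trafficking first found as a lipopolysaccharide-induced gene, fell by 1.14 ± 0.19. Mmp25, a membrane-bound metalloproteinase of leukocytes, fell by 0.38 ± 0.06, the smallest change of the 68. Srgn, Ifitm1 and Litaf were among the 10 called genes whose change against untreated array 1 alone was more than 1.5 times smaller (-0.495, -0.539 and -0.665).

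Of 26 macrophage and monocyte markers 2 fell, Cd14, the lipopolysaccharide co-receptor, and Plaur, the urokinase receptor, both already called with a single combination. Their pooled changes were -1.78 ± 0.18 (adjusted p = 0.00835) and -1.43 ± 0.17 (adjusted p = 0.0125). Cd68, a general macrophage marker, stood at -0.45 ± 0.31 (adjusted p = 0.467), with 14.26 to 15.91 in the combination arrays and 15.32 to 16.02 in the untreated arrays, which overlapped. The median over the 26 markers, relative to the mean of the 9 arrays, was -0.359 to 0.16 in the combination arrays and 0.0557 to 0.599 in the untreated arrays. Their median change was -0.387, or -0.194 against untreated array 1 alone. Of 34 interferon-induced genes 1 fell, Trim25, a ubiquitin ligase of RNA sensing, while 33 had a negative change with a median of -0.378, or -0.216 against untreated array 1 alone and -0.181 against untreated array 2 alone. Trim30d, of a related family, fell by 0.74 ± 0.12 (adjusted p = 0.0417) and was gained by pooling.

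**Figure D3:**
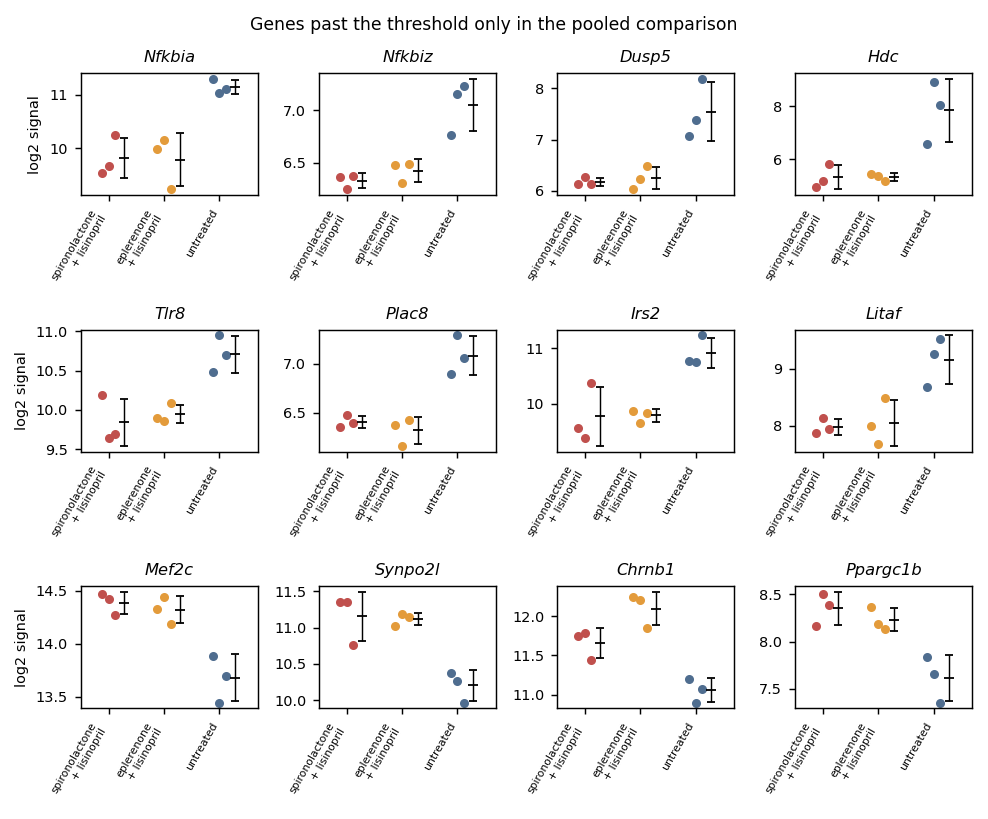
Log2 signal of each array for 12 genes that passed in the pooled comparison and in neither single one (left to right in each panel: spironolactone plus lisinopril, eplerenone plus lisinopril, untreated; bars are mean ± SD, n = 3 each). In all 12 panels the 6 combination points lie on one side of the 3 untreated points, as the choice of genes required. They lie below for Nfkbia to Litaf and above for Mef2c to Ppargc1b.

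Among feedback regulators of signalling, Dusp5 and Zfp36 fell. Dusp5, a nuclear phosphatase that inactivates ERK kinases, read 6.14, 6.27 and 6.13 in the spironolactone arrays and 6.04, 6.23 and 6.48 in the eplerenone arrays, against 7.07, 7.37 and 8.18 in the untreated arrays. Its change was -1.33 ± 0.20 (adjusted p = 0.0337), with no overlap, and -0.858 against untreated array 1 alone. Zfp36 encodes tristetraprolin, which binds AU-rich elements and speeds the decay of cytokine mRNAs. It read 6.91, 7.36 and 8.37 in the spironolactone arrays and 7.73, 8.0 and 7.83 in the eplerenone arrays, against 9.60, 9.27 and 10.25 in the untreated arrays, a change of -2.01 ± 0.28 (adjusted p = 0.0258). Of 19 measured genes of this list these 2 fell and none rose, with a median of -0.275 (-0.0274 against untreated array 2 alone). A negative change was seen for 13 and a positive one for 6, not far from all tested clusters, of which 41.6% were positive. Plk3, a stress-responsive kinase, fell by 0.74 ± 0.12 and was gained by pooling.

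None of 25 immediate-early transcription factor genes passed, although all 25 had a negative change and their median was -0.77, or -0.5 and -0.399 against untreated arrays 1 and 2 alone. The nearest were Fosl2 at -1.88 ± 0.40 (adjusted p = 0.0926) and Nr4a3 at -2.17 ± 0.47 (adjusted p = 0.0962). Fosl2 read 7.50 to 9.28 in the combination arrays and 9.19 to 10.83 in the untreated arrays, so the groups overlapped. Csrnp1, a nuclear protein induced by Axin and by growth stimuli, fell by 0.81 ± 0.10 and was called with the spironolactone combination alone.

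Glucocorticoid-responsive genes were described because antagonists of the mineralocorticoid receptor and prednisolone act on related receptors. Of 34 measured, 3 fell (Nfkbia, Mt1 and Irs2) and none rose, with a median of -0.434. Mt1, a metallothionein that binds zinc and copper, read 16.47, 16.75 and 16.71 in the spironolactone arrays and 16.51, 16.59 and 16.59 in the eplerenone arrays, against 17.38, 17.78 and 18.12 in the untreated arrays, a change of -1.16 ± 0.14 (adjusted p = 0.0156). Such levels exceed the 16-bit range of a scanner, so the deposited scale was stretched at a step that is not described. Irs2, an adaptor of the insulin receptor, read 9.56, 9.37 and 10.38 in the spironolactone arrays and 9.87, 9.66 and 9.84 in the eplerenone arrays, against 10.77, 10.76 and 11.23 in the untreated arrays. Its change of -1.14 ± 0.19 (adjusted p = 0.0485) was the nearest to the threshold among the 15 largest falls. Mt2 and Mt4, related metallothioneins, stood at -1.24 ± 0.21 and -0.46 ± 0.08 with adjusted p of 0.0514 and 0.0506.

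The classic readouts of the receptors did not pass. Tsc22d3, the glucocorticoid-induced leucine zipper, stood at -0.81 ± 0.27 (adjusted p = 0.166), Fkbp5, a co-chaperone of steroid receptors, at -0.39 ± 0.27 (adjusted p = 0.465), Sgk1, an aldosterone-induced kinase, at -0.20 ± 0.24 (adjusted p = 0.7) and Per1 at -0.42 ± 0.48 (adjusted p = 0.668). Sgk1 read 10.11 to 11.37 in the combination arrays and 10.79 to 11.55 in the untreated arrays. None of 18 mineralocorticoid receptor-responsive genes passed, 16 of the 18 had a negative change, and the median was -0.219, or -0.138 against untreated array 1 alone. The list was led by Adamts1, a matrix protease gene, at -1.28 ± 0.25 (adjusted p = 0.0752). The receptor gene Nr3c2 stood at 0.23 ± 0.13 (adjusted p = 0.383) and the glucocorticoid receptor gene Nr3c1 at 0.15 ± 0.13 (adjusted p = 0.574).

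The angiotensin pathway, the target of lisinopril, held no called gene among 17 measured, with a median of -0.0073. Ace, the enzyme that lisinopril blocks, read 12.61 to 13.58 in the combination arrays and 12.70 to 13.38 in the untreated arrays, a difference of 0.01 ± 0.21. Agtr2, a second angiotensin receptor, stood at 0.55 ± 0.14 with no overlap but an adjusted p of 0.118. Matrix genes were described because fibrosis marks late dystrophic muscle. None of 24 fibrillar and other matrix genes passed (median 0.0646), and Col1a1, a fibrillar collagen chain, stood at 0.07 ± 0.06 (adjusted p = 0.563). None of 25 TGF-beta pathway genes passed (median -0.00984).

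Thbs1 was the largest fall among the 68 called clusters. It encodes thrombospondin-1, a matricellular glycoprotein that can activate latent TGF-beta. It read 12.40, 12.48 and 11.63 in the spironolactone arrays and 12.34, 11.82 and 12.75 in the eplerenone arrays, against 14.21, 15.07 and 15.94 in the untreated arrays. The change was -2.84 ± 0.36 (adjusted p = 0.0167), and against untreated array 1 alone it was -1.97. Nfe2l2, the master factor of oxidative stress defence, changed by -0.74 ± 0.08 (adjusted p = 0.00879), with 9.63 to 9.74 in the combination arrays and 10.30 to 10.61 in the untreated arrays. It was the 1 member called of 22 oxidative stress genes, whose median was -0.181, or -0.0863 against untreated array 1 alone. The death-suppressing Bcl2 relative Mcl1 fell by 0.64 ± 0.09 and the elongation factor gene Ell2 by 1.12 ± 0.12.

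The other lower genes gained by pooling have varied roles. Nus1, a subunit of the prenyltransferase that makes dolichol, fell by 0.71 ± 0.10 (adjusted p = 0.0258). It read 10.78 to 10.99 in the combination arrays, against 11.31, 11.74 and 11.74 in the untreated arrays, and its change against untreated array 1 alone was -0.42. Hilpda, a hypoxia-inducible lipid droplet protein, fell by 0.51 ± 0.08. Ier5l fell by 0.44 ± 0.08, Ttc39b by 0.43 ± 0.07, Wbp1l by 0.59 ± 0.08 and Smim3 by 0.76 ± 0.12. Olfr47, Tmem95 and Mrgpra1 are named for an olfactory receptor, a sperm membrane protein and a sensory neuron receptor. They changed by -0.61, -0.49 and -0.49, and together with Mmp25 they were the 4 named genes of the 40 whose mean signal lay below the median of all values, where a level cannot be told from background without detection values. Of the 40, 7 had symbols of predicted genes or small RNAs, 5 of them lower and 2 higher.

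**Figure D4:**
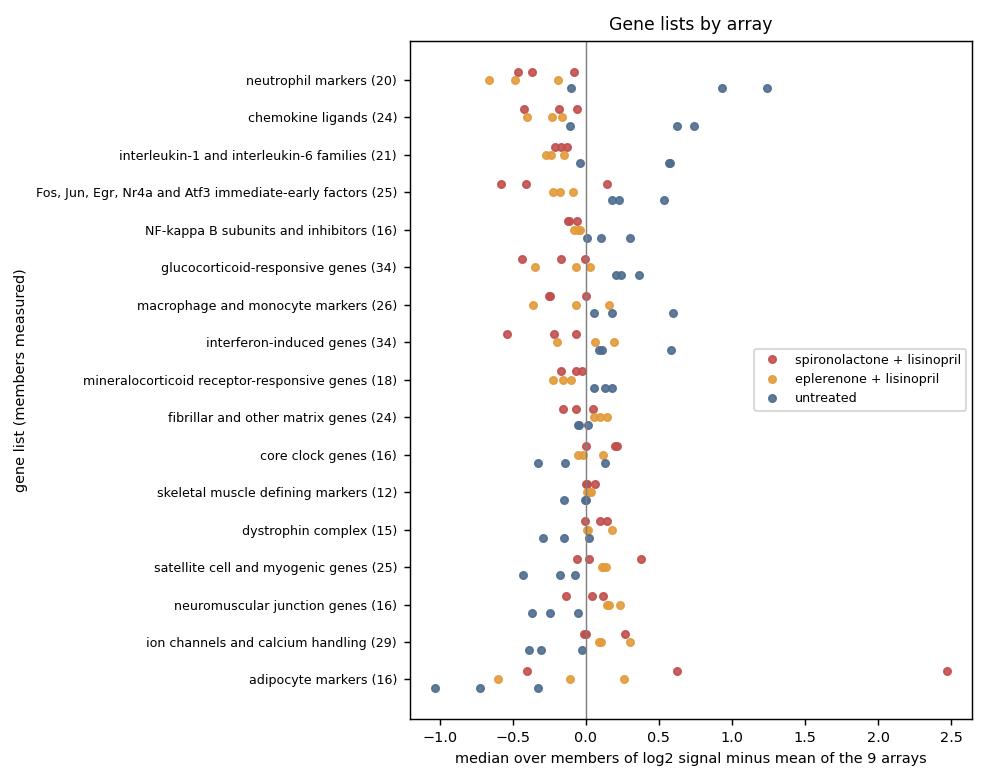
Median over the members of each gene list of log2 signal minus the mean of the 9 arrays (x axis), with 1 point per array for spironolactone plus lisinopril, eplerenone plus lisinopril and untreated. Untreated arrays 2 and 3 stand to the right for neutrophil markers (0.932 and 1.24) while untreated array 1 does not (-0.104), and spironolactone array 3 stands alone for adipocyte markers (2.47).

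Mef2c, Synpo2l, Sync and Chrnb1, which encode muscle proteins, were gained by pooling and rose. Mef2c, a MADS-box factor that drives muscle genes, read 14.47, 14.42 and 14.27 in the spironolactone arrays and 14.33, 14.44 and 14.19 in the eplerenone arrays, against 13.89, 13.45 and 13.70 in the untreated arrays. The groups did not overlap, and the change was 0.68 ± 0.11 (adjusted p = 0.0378). Among 25 measured satellite cell and myogenic genes Mef2c rose and none fell, 22 had a positive change and the median was 0.317, or 0.13 against untreated array 2 alone. Myh3, the embryonic myosin of regenerating fibres, stood at 0.98 ± 0.51 (adjusted p = 0.329), and Myh8, the perinatal myosin, at 0.78 ± 0.18 (adjusted p = 0.105). The related factor genes Mef2a and Mef2d stood at 0.18 ± 0.11 and 0.32 ± 0.12 with adjusted p of 0.427 and 0.202.

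Synpo2l, which encodes a Z-disc protein that binds actin and alpha-actinin, read 11.35, 11.35 and 10.77 in the spironolactone arrays and 11.02, 11.19 and 11.14 in the eplerenone arrays, against 10.37, 10.27 and 9.97 in the untreated arrays. It rose by 0.93 ± 0.14 (adjusted p = 0.0319) without overlap. Sync, syncoilin, an intermediate filament protein that binds alpha-dystrobrevin, a partner of dystrophin, rose by 0.56 ± 0.09 (adjusted p = 0.0475). Sntb1, beta-1-syntrophin, which also belongs to the dystrophin complex, was higher by 1.15 ± 0.19 (adjusted p = 0.0417) and had passed with the spironolactone combination alone. It read 12.68, 11.66 and 11.91 in the spironolactone arrays and 11.39, 11.61 and 11.41 in the eplerenone arrays, against 10.83, 10.63 and 10.41 in the untreated arrays, with the highest level in spironolactone array 1.

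Of 15 measured dystrophin complex genes Sntb1 was the 1 that rose, none fell, and 13 had a positive change with a median of 0.272, or 0.0905 against untreated array 1 alone. Dag1, dystroglycan, stood at 0.38 ± 0.09 and Sgca, alpha-sarcoglycan, at 0.48 ± 0.12, with adjusted p of 0.1 and 0.126. The Dmd cluster, whose level does not show whether protein is made, stood at 0.34 ± 0.16 (adjusted p = 0.273), and Utrn, utrophin, at 0.05 ± 0.09 (adjusted p = 0.805). None of 23 sarcomere and Z-disc genes on the fixed list passed, with a median of 0.225.

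The neuromuscular junction added Chrnb1, the beta subunit of the muscle acetylcholine receptor. It read 11.75, 11.79 and 11.45 in the spironolactone arrays and 12.24, 12.20 and 11.85 in the eplerenone arrays, against 11.20, 10.90 and 11.07 in the untreated arrays. All 6 combination arrays were above all 3 untreated arrays, and the change was 0.82 ± 0.13 (adjusted p = 0.0412). Of 16 junction genes Chrnb1 alone passed, and 14 had a positive change with a median of 0.39, or 0.179 against untreated array 1 alone. Chrnd, the delta subunit gene, stood at 0.95 ± 0.22 (adjusted p = 0.104) and Rapsn, which clusters the receptors, at 0.41 ± 0.11 (adjusted p = 0.128). None of 29 ion channel and calcium handling genes passed, though 26 had a positive change and the median was 0.398, or 0.141 against untreated array 1 alone.

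Energy and growth genes gained by pooling were Ppargc1b, Acss2, Gsk3a and Tbc1d7. Ppargc1b, a coactivator of mitochondrial biogenesis, read 8.17, 8.51 and 8.39 in the spironolactone arrays and 8.37, 8.19 and 8.13 in the eplerenone arrays, against 7.83, 7.65 and 7.35 in the untreated arrays, and rose by 0.68 ± 0.11 (adjusted p = 0.0417). Its paralogue Ppargc1a had a change of the other sign, -0.56 ± 0.22, and did not pass (adjusted p = 0.215). Of 27 mitochondrial genes Ppargc1b was the 1 called, 22 had a positive change and the median was 0.195, or 0.0602 against untreated array 1 alone. Acss2, which makes acetyl-CoA from acetate in cytosol and nucleus, rose by 0.68 ± 0.11. Gsk3a, a glycogen synthase kinase, rose by 0.46 ± 0.07, and Tbc1d7, a subunit of the tuberous sclerosis complex that restrains mTORC1, rose by 0.58 ± 0.09.

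Hsf2, a heat shock transcription factor, rose by 0.46 ± 0.08 (adjusted p = 0.0475), with 9.96 to 10.31 in the combination arrays and 9.63 to 9.71 in the untreated arrays. It was the 1 of 19 heat shock genes called, with a list median of 0.00797. Reep1, which shapes endoplasmic reticulum membranes, rose by 0.63 ± 0.10, and Adamts20, a secreted metalloproteinase, rose by 0.97 ± 0.16, the largest rise among genes gained by pooling. The muscle atrophy ligase genes Fbxo32 and Trim63 stood at -0.74 ± 0.31 and -0.43 ± 0.23 (adjusted p = 0.244 and 0.334). Adipocyte markers had no call among 16, but all 16 had a positive change with a median of 1.04, and their median by array reached 2.47 in spironolactone array 3 and was -0.404 in spironolactone array 2.

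The clock genes Dbp and Nr1d1 were the largest rises among the 68 called clusters. Dbp, a PAR bZIP factor driven directly by the clock, read 11.04, 11.15 and 10.80 in the spironolactone arrays and 10.54, 10.69 and 9.81 in the eplerenone arrays, against 9.66, 8.76 and 8.96 in the untreated arrays, a rise of 1.55 ± 0.22 (adjusted p = 0.0268). Nr1d1 encodes REV-ERB alpha, a repressor in the clock loop. It read 12.12, 12.27 and 11.99 in the spironolactone arrays and 11.64, 12.04 and 12.15 in the eplerenone arrays, against 11.19, 10.92 and 10.41 in the untreated arrays, a rise of 1.19 ± 0.16 (adjusted p = 0.0213). Per3, a period gene, rose by 0.92 ± 0.15 (adjusted p = 0.0412) with 1 overlapping array: its lowest combination array, eplerenone array 3, read 7.35 and its highest untreated array, array 1, read 7.38.

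Nfil3, a repressor that competes with Dbp for its sites, fell by 0.78 ± 0.09 (adjusted p = 0.0136), with 6.29 to 6.77 in the combination arrays and 7.31 to 7.43 in the untreated arrays. Tef, a close relative of Dbp, stood at 0.74 ± 0.14 (adjusted p = 0.0749) and Arntl, the activator of the loop, at -0.58 ± 0.18 (adjusted p = 0.159). Among 16 core clock genes 2 rose and none fell, with a median of 0.10 (-0.0376 against untreated array 1 alone), and among 9 clock output factors 1 rose and 1 fell. These genes cycle over the day, the time of dissection is not given in the sources used here, and its part was not tested.

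The small RNA host cluster Mir99a was chosen for description after its values were seen, since the rule for named genes leaves such symbols out. It rose by 0.93 ± 0.11 (adjusted p = 0.0125) and had passed with the spironolactone combination alone. The cluster read 6.09, 5.88 and 6.38 in the spironolactone arrays and 5.72, 5.92 and 5.63 in the eplerenone arrays, against 5.05, 5.08 and 4.90 in the untreated arrays. The untreated levels lay below the median of all values (5.76), where a level cannot be told from background without detection values. The mature RNAs that RefSeq places in this gene (GRCm38.p6, chr16:77598940-77598961 and chr16:77598977-77598997, plus strand) are shown to identify it, with the seed, bases 2 to 8, in capitals. Labelling in this protocol is of amplified cDNA, so the level need not be that of the mature RNA.
miR-99a-5p: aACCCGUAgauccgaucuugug
miR-99a-3p: cAAGCUCGuuucuaugggucu

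The combinations were then compared with each other, a difference whose value does not use the untreated arrays, although they enter its variance. Both antagonists are steroidal spirolactones. Eplerenone carries a methyl ester where spironolactone carries an acetylthio group, and it has an epoxide at another site. Their doses differed, so the comparison is of the treatments as given. No cluster passed (0% of those tested, smallest adjusted p 0.998), while 1365 had an unadjusted p under 0.05 (4.49%). Of the 68 called clusters, 13 had an unadjusted p under 0.05 between the combinations and none passed after adjustment. Over the 68, the 95% interval of the difference extended between 0.144 and 1.0 log2 units on each side of it, with a median of 0.278, so smaller differences were not resolved.

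The smallest unadjusted p was that of the predicted gene Gm23331, with changes of -0.99 and -0.46 and a difference of -0.53 (95% interval -0.79 to -0.27). Sntb1 differed by 0.61, Srgn by 0.45, Mir99a and Gm14417 by 0.36 each and Shisa4 by -0.34. For Chrnb1 the change was 0.60 with the spironolactone combination and 1.04 with the eplerenone combination, a difference of -0.44 (95% interval -0.77 to -0.11). For Rel the changes were -0.39 and -0.69 in the same order, a difference of 0.30 (0.14 to 0.46). Dbp changed by 1.87 with the spironolactone combination and 1.22 with the eplerenone combination, a difference of 0.65 (0.09 to 1.21), and Per3 by 1.25 and 0.60, a difference of 0.65 (0.28 to 1.03). For Nfkbia the difference was close to zero, with changes of -1.33 and -1.36. The intervals are unadjusted for the number of genes.

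**Figure D5:**
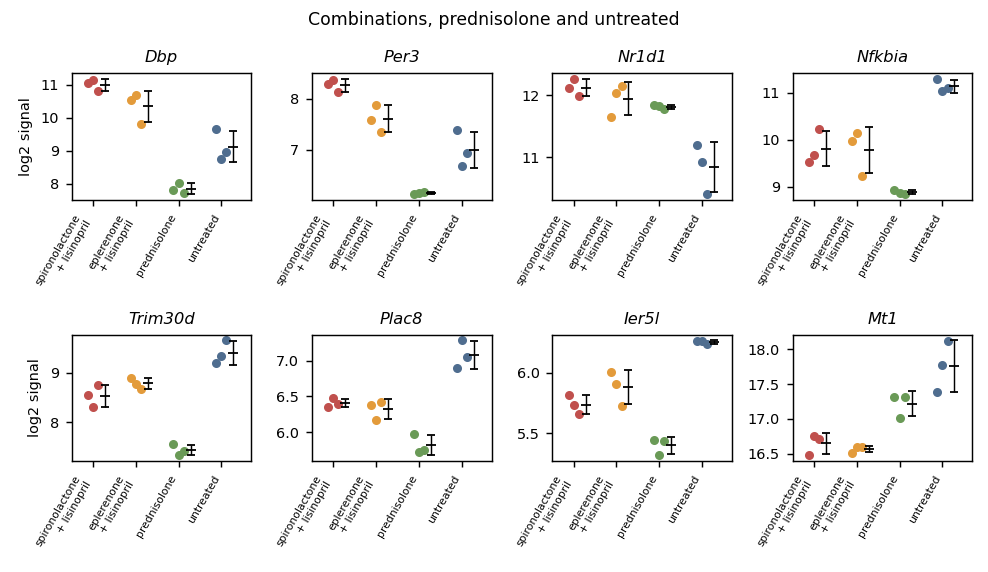
Log2 signal by array for 8 called genes (left to right: the combination with spironolactone, the combination with eplerenone, prednisolone, untreated; points are arrays, bars are mean ± SD, n = 3 each). Dbp and Per3 lie lowest with prednisolone and highest with the combinations, and Nfkbia, Trim30d, Plac8 and Ier5l lie lowest with prednisolone and highest in untreated muscle.

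Prednisolone, the glucocorticoid used in Duchenne muscular dystrophy, gave the comparator. The pooled combinations differed from it in 633 clusters (2.08%), and prednisolone differed from untreated in 1942 (6.39%). The count of 633 was 68, 62 and 415 without prednisolone arrays 1, 2 and 3, it was 318 without spironolactone array 1 and 303, 257 and 374 without eplerenone arrays 1, 2 and 3. Of the 633, 55.9% were higher with the combinations, or 75.4% of 712 with array medians made equal. Among the 68 clusters called against untreated, 8 differed between the combinations and prednisolone, and for the other 60 no difference was resolved. Prednisolone against untreated changed 66 of the 68 in the same direction as the combinations. Of all 68, 60 also passed the threshold with prednisolone in that direction, a set that is not the 60 just named. Both comparisons share the untreated arrays, so they are not independent.

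Dbp and Per3 differed most, and in direction against untreated. Dbp read 9.81 to 11.15 in the combination arrays and 7.80, 8.03 and 7.72 in the prednisolone arrays, a difference of 2.82 ± 0.22 (adjusted p = 0.000479). Its change against untreated was 1.55 with the combinations and -1.28 with prednisolone (adjusted p = 0.0167). Per3 read 7.35 to 8.37 in the combination arrays and 6.15, 6.16 and 6.19 in the prednisolone arrays, a difference of 1.77 ± 0.147 (adjusted p = 0.000597). Nr1d1 did not differ past the threshold, at 0.22 (adjusted p = 0.54).

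Trim30d, Nfkbia, Plac8 and Ier5l were higher with the combinations than with prednisolone. Trim30d read 8.31 to 8.90 in the combination arrays and 7.56, 7.35 and 7.43 in the prednisolone arrays, a difference of 1.21 (adjusted p = 0.00152). Nfkbia was higher with the combinations than with prednisolone by 0.91 ± 0.20 (adjusted p = 0.0446), Plac8 by 0.55 ± 0.10 (adjusted p = 0.0247) and Ier5l by 0.41 ± 0.08 (adjusted p = 0.0248). All 3 had fallen against untreated with each treatment: the changes were -1.34 and -2.25 for Nfkbia, -0.72 and -1.27 for Plac8, and -0.44 and -0.85 for Ier5l, with the combinations first and prednisolone second. Both comparisons against untreated share the same 3 arrays. For Mt1 the difference from prednisolone was -0.62 and did not pass (adjusted p = 0.0563), whereas Mt2 and Mt4 passed, with an adjusted p of 0.0236 each, and were lower with the combinations. The predicted genes Gm14417 and Gm25308 were lower with the combinations, by differences of -0.499 and -0.587. Of 20 genes described whatever their result, 4 differed from prednisolone: Col1a1 (0.73 ± 0.06, adjusted p = 0.000634), Per1 (2.95 ± 0.48, adjusted p = 0.0157), the angiotensinogen gene Agt (-0.93 ± 0.15, adjusted p = 0.0153) and Fbxo32, a muscle atrophy ligase (-2.26 ± 0.31, adjusted p = 0.00813). Fbxo32 read 9.67 to 11.12 in the combination arrays, 12.54 to 12.79 in the prednisolone arrays and 10.63 to 11.63 in the untreated arrays.

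Against untreated, 3 of those 20 genes passed (Thbs1, Zfp36 and Nfe2l2), and the other 17 had adjusted p between 0.166 and 0.983. Of the 50 gene lists, 19 held at least 1 called member and 31 held none. The 6 called clusters that stayed past the threshold with each of the 9 arrays left out in turn were Cd14, Cd80, Dennd4a, Ell2, Il6 and the predicted gene Gm25308. Each of the 6 had passed in a single comparison. These omissions keep the prednisolone arrays in the variance, and in the fit on the 9 arrays without prednisolone Dennd4a alone passed. The mean signal of Il6 and Gm25308 (5.29 and 5.09) lay below the median of all values (5.76). The 40 gained by pooling passed in 2 to 4 of these 9 omissions, while their changes stayed between 0.759 and 1.26 times the value with all arrays. The cause of these losses was not tested. Over omissions of 1 array the pooled count ran from 6, without untreated array 3, to 988, without untreated array 1. Against untreated array 1 alone, 7 of the 40 were more than 1.5 times smaller.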

How the data were processed

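Quadriceps RNA of 12 mice was hybridised to Affymetrix whole-transcript arrays, 1 per mouse. Each deposited value is a log2 signal of a transcript cluster. The authors obtained it by RMA, and the submitters' processing notes name Affymetrix Expression Console and Transcriptome Analysis Console as programs. The sources used here give no program version, annotation release or genome build. Values ran up to 19.93, and 1.27% to 1.34% of each array lay above 16, so an undescribed rescaling took place and folds hold on that scale.

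Of 65587 clusters, the platform annotation pairs 30412 with exactly 1 symbol, and these were tested. No dim clusters were removed and detection values were not used here. The model, in limma 3.58.1 under R 4.3.3, had a mean per group over all 12 arrays (contrasts, eBayes without trend, two-sided, 8 residual and 2.94 prior degrees of freedom), so prednisolone arrays enter the variance. The model takes the groups to share 1 variance per cluster, which need not hold. For Cd80 the SD was 0.44 in the untreated arrays and 0.03 to 0.06 in the other groups. For Nfkbia it was 0.14 untreated and 0.49 with the eplerenone combination. The pooled contrast weights each combination by 0.5. Benjamini-Hochberg adjustment ran over the 30412 clusters, and 0.05 was the threshold. The procedure was tried on simulated data with independent noise of equal variance in every group. Such data hold no deviating array, so the trial says nothing of how the counts move between omissions. Errors are SE unless named SD, with 6 combination and 3 untreated arrays. The number of arrays limits the precision. Replicates are biological per the labels. The labels name no batch, scan date or dissection time.

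Genes are named by a rule: the 15 largest rises and falls among called clusters without overlap, the same among clusters gained by pooling (predicted genes and small RNAs counted only, in both), list members called or the 3 with the smallest p, and 20 fixed genes; other genes named beside them were chosen after their values were seen. The gene lists, in which a gene is represented by its brightest cluster, and the members were chosen with earlier results of these data known. Lists share members and are described by counts and medians without a test. The alternatives changed the arrays, the grouping, the variance prior, array weights, scaling, a filter on low values and the clusters tested, and added the replicate number as a block.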

Additional observations from a re-analysis of the deposited data

Results flagged for a closer look

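Among the 68 called clusters, 8 differed between the pooled combinations and prednisolone (combinations minus prednisolone, limma with Benjamini-Hochberg adjustment over all tested clusters). The differences were 2.82 for Dbp, 1.77 for Per3, 1.21 for Trim30d, 0.911 for Nfkbia, 0.552 for Plac8, 0.41 for Ier5l, -0.499 for Gm14417 and -0.587 for Gm25308, with adjusted p of 0.000479, 0.000597, 0.00152, 0.0446, 0.0247, 0.0248, 0.0294 and 0.0113 in that order. Dbp and Per3 had opposite signs against untreated under the combinations and under prednisolone.

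Clusters outside the main measurement also passed. When all 65587 clusters were tested together, 26 of the 35175 clusters without exactly 1 symbol passed the threshold (0.0739%), 4 higher and 22 lower with the combinations, beside 35 of the tested clusters with 1 symbol. They carry no single gene name in the annotation used here and are not described further. None of the 68 called clusters had a combination array that stood far from the other 5 by Dixon's test. The untreated arrays were not tested this way, and calling favours clusters with a small spread within groups. The result therefore says nothing of a deviating untreated array.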

How the results depend on the processing

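The pooled count of 68 was 1 in the fit on 9 arrays, 21 with the 6 combination arrays as 1 group, 42 after quantile normalization again, and 0, 257 and 444 with only untreated array 1, 2 or 3 as the untreated group (2175 clusters had an unadjusted p under 0.05 in the first of these). It lay between 60 and 92 with an intensity trend, a robust prior, array weights, equal medians, the filter on low values and all clusters tested. Leaving out 1 array gave 6 to 988. The count gained by pooling, 40, was 1, 19, 0 and 63 in the fit on 9 arrays, after quantile normalization and with only untreated array 1 or 2, and 4 to 344 with 1 array left out.

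With spironolactone plus lisinopril alone the count of 25 was 0 in the fit on 9 arrays, 40 with array weights, 11 with all clusters tested, and 0, 181 and 387 with only untreated array 1, 2 or 3. With eplerenone plus lisinopril alone the count of 9 was 0, 15 with array weights, 18 with the filter on low values, and 0, 138 and 329 for the same single arrays. Leaving out 1 array gave 0 to 534 and 0 to 432, highest without untreated array 1 in both and 165 and 17 without spironolactone array 3. Against prednisolone the count of 633 was 1369 with array weights, 1021 with the filter and 418 with all clusters tested, and 62 to 714 with 1 array left out. Between the combinations the count was 0 throughout, with 745 to 3074 clusters at an unadjusted p under 0.05. Of the 191 clusters at a fold of 2, 168 had an unadjusted p under 0.05 and 18 an adjusted one. The cause of these moves was not tested.

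Same-numbered arrays of different groups did not deviate together: over 18 pairs the correlation of deviations was -0.237 to 0.157, and 4 exceeded 0.1. With the replicate block the count was 49 for the pooled comparison (36 of them among the 68) and 47 gained by pooling (12 of them among the 40). It was 1 and 2 for the single combinations and 294 against prednisolone. Among clusters gained by pooling, members of the 40 were 11 of 46 with all clusters tested and 22 of 53 with the filter. They were 20 of 35 with array weights, 27 of 37 with equal medians and 15 of 19 after quantile normalization. With an intensity trend they were 38 of 40, and with a robust prior 33 of 35. Without background values the level of dim clusters is not resolved.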
